A study of Sus scrofa with 6 samples.

Results

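ADGRB1, ADGRB2 and ADGRB3 (also called BAI1 to BAI3) encode the brain-specific angiogenesis inhibitor branch of the adhesion G protein-coupled receptors. All 3 genes were found in the deposited table of 21280 protein-coding genes by matching its Ensembl identifiers to symbols. The circular RNAs (circRNAs) of these loci were taken as every row of the deposited circRNA table that lies inside a gene's annotated bounds in Sscrofa11.1. That gave 24 of 11375 circRNAs, all of them in ADGRB3, and 0 in ADGRB1 or ADGRB2. The genes were chosen by name and the circRNAs by their presence in the table, so the number of circRNAs is a description and was not tested.

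The libraries came from brain tissue of 3 wild boars and from cerebrum of 3 Rongchang pigs, a Chinese domestic breed, while the title of the series speaks of prefrontal cortex. The labels give every animal as a female of 2 years, and no genotype, allele or treatment was given for either group. The domestic pig libraries were labelled as re-analysed data of another project. The groups thus differ in breed, in project and in the tissue named, and the parts of these cannot be told apart in any comparison below. The p-values refer to these 6 libraries only. Those fitted to deposited gene levels do not measure each gene's own spread, as stated below.

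Adhesion G protein-coupled receptors carry a very long extracellular part that binds ligands on neighbouring cells or in the matrix, a domain in which the receptor cuts itself, and the membrane-spanning part that signals inside the cell. ADGRB1 is known as a receptor for phosphatidylserine on dying cells and as an organiser of dendritic spines. ADGRB3 binds the secreted C1q-like proteins, and in mice it takes part in forming synapses. ADGRB2 is the least studied of the group. A circRNA is a closed loop made when a downstream splice donor is joined to an upstream splice acceptor, and reads across that junction are called back-splice reads. CircRNAs lack free ends, last longer than most linear transcripts and are abundant in neurons.

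ADGRB3 (ENSSSCG00000004270) lies on chromosome 1 from 48885885 to 49619783 and spans 733.9 kb. ADGRB1 (ENSSSCG00000035891) lies on chromosome 4 from 1582321 to 1658639 and spans 76.3 kb. ADGRB2 (ENSSSCG00000003604) lies on chromosome 6 from 88256144 to 88293519 and spans 37.4 kb. Gene levels were deposited as TPM, a length-corrected share of the transcripts in a library, whose values for protein-coding genes summed to between 17.2% and 40.9% of 1000000 per library. A shift in the rest of that scale moves every listed gene, so the main results are given on the deposited TPM and after rescaling each library by its median ratio to the other libraries. Recovered back-splice reads numbered 38047, 59343 and 33644 in wild boar 1 to 3, against 71183, 48822 and 73089 in domestic pig 1 to 3.

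Markers of brain cell types were present in every library. Summed deposited TPM of 5 oligodendrocyte markers was 1619 to 2962 in wild boar, against 2212 to 3314 in domestic pig, and that of 5 astrocyte markers was 617.0 to 920.4 in wild boar, against 781.8 to 1160 in domestic pig. Their rescaled sums overlapped. These were 1836 to 2998 in wild boar, against 2070 to 2525 in domestic pig, for oligodendrocytes. For astrocytes they were 768.1 to 1070 in wild boar, against 806.4 to 892.1 in domestic pig. Of 5 cerebellar markers, GABRA6, CBLN3 and PCP2 were below 1 TPM in all 6 libraries, while CALB1 and ZIC1 were not. The 5 summed to 4.41 to 7.92 rescaled TPM in wild boar, against 5.74 to 7.19 in domestic pig. Of the 2 that were tested, 1 passed as lower. On rescaled TPM, 6 markers of glutamatergic neurons summed to 190.2 to 223.6 in wild boar, against 113.4 to 164.2 in domestic pig, with 3 of the 6 passing as higher. The 3 red blood cell markers summed to 447.1 to 1315 in wild boar, against 85.5 to 226.7 in domestic pig. The 3 markers of thalamus and other deep regions, with LHX9 below 1 TPM in all 6, summed to 3.36 to 5.43 in wild boar, against 8.36 to 10.9 in domestic pig. The rescaled sums of other lists were 73.8 to 83.6 in wild boar, against 74.3 to 91.5 in domestic pig, for GABAergic neurons, 36.3 to 77.7 in wild boar, against 47.4 to 59.0 in domestic pig, for microglia, and 19.5 to 30.6 in wild boar, against 12.9 to 13.8 in domestic pig, for endothelium. Striatal markers summed to 11.4 to 13.5 in wild boar, against 11.5 to 56.9 in domestic pig. The part of these differences in the results below was not tested. In whole tissue, fewer cells of a type and less RNA per cell cannot be told apart.

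The first comparison asked how the levels of the 3 receptor genes stand in wild boar against domestic pig. ADGRB1 and ADGRB2 were higher in wild boar once libraries were put on a common scale, while ADGRB3, the most abundant of the 3, did not pass the test on either scaling and its estimate was below 0 on both. Within each library ADGRB3 made up 45.4% ± 0.604 of the summed TPM of the 3 genes in wild boar, against 64.9% ± 2.90 in domestic pig (± SD, n = 3 libraries each).

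ADGRB3 was at 17.1, 10.4 and 22.9 TPM in wild boar 1 to 3, against 20.7, 36.9 and 28.8 TPM in domestic pig 1 to 3. Wild boar 3 was above domestic pig 1, so the groups overlapped. The log2 difference was -0.77 on deposited TPM (SE 0.42; 95% interval -1.60 to 0.05; limma adjusted p = 0.306). On rescaled TPM the values were 19.4, 18.0 and 19.6 in wild boar, against 23.6, 25.7 and 21.0 in domestic pig. Every wild boar value was then below every domestic pig value, with a log2 difference of -0.28 (SE 0.11; 95% interval -0.54 to -0.03) that missed the threshold after adjustment over 11752 genes (limma adjusted p = 0.101). It missed it under every alternative run, with estimates of -0.36 to -0.22 on rescaled TPM.

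ADGRB2 was at 13.1, 7.69 and 18.0 TPM in wild boar, against 5.91, 14.7 and 10.2 TPM in domestic pig. These values interleave, and on deposited TPM the log2 difference was 0.31 (SE 0.41; limma adjusted p = 0.665). Rescaled values were 14.8, 13.3 and 15.4 in wild boar, against 6.75, 10.2 and 7.43 in domestic pig, with no overlap. The rescaled log2 difference was 0.78 (SE 0.15; 95% interval 0.45 to 1.12; limma adjusted p = 0.0131).

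ADGRB1 was the lowest of the 3, at 7.92, 4.48 and 9.75 TPM in wild boar, against 3.73, 6.87 and 6.52 TPM in domestic pig. The deposited values overlapped, with a log2 difference of 0.30 (SE 0.40; limma adjusted p = 0.662). Rescaled values were 8.98, 7.77 and 8.37 in wild boar, against 4.25, 4.78 and 4.76 in domestic pig, where every wild boar library was above every domestic pig library. The rescaled log2 difference was 0.74 (SE 0.11; 95% interval 0.50 to 0.98; limma adjusted p = 0.00619).

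Of the 3 genes, 0 passed on deposited TPM, where 1.6% of all genes passed (0.136% as higher and 1.46% as lower) and 0 of the 3 had an unadjusted p under 0.05. After rescaling 2 passed, both higher, where 8.88% of all genes passed as higher and 10.7% as lower. An unadjusted p under 0.05 was then seen for all 3, and for 4328 of all 11752 genes. The share of all genes without overlap after rescaling was not computed, so the separation of the groups in the 3 genes is a description only. The median log2 difference of all tested genes was -0.41 on deposited TPM and 0.01 after rescaling. ADGRB1 and ADGRB2 passed after rescaling with any 1 library left out, at adjusted p of 0.00820 to 0.0281 and 0.00659 to 0.0466. For genes on deposited TPM limma drew its variance wholly from genes of like level. An SE or p-value there does not measure the spread of the gene itself.

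**Figure D1:**
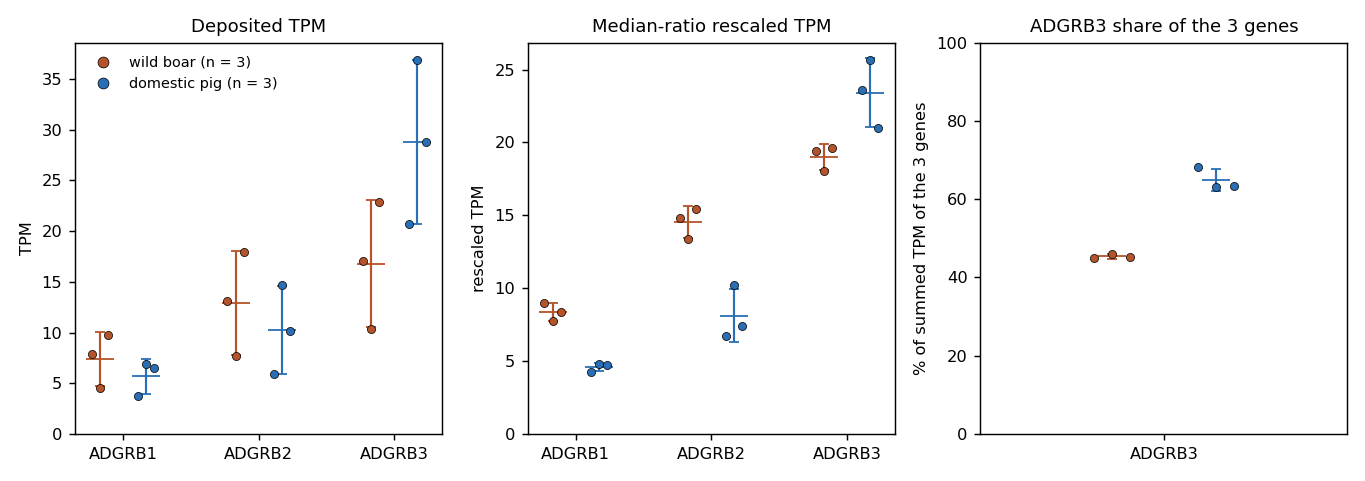
Level of ADGRB1, ADGRB2 and ADGRB3 in each library as deposited TPM (left), as median-ratio rescaled TPM (middle), and ADGRB3 as a percent of the summed deposited TPM of the 3 genes (right); points are libraries, horizontal marks are means and bars are SD over 3 libraries. The groups overlap for every gene on deposited TPM, whereas the ADGRB3 share is 44.9% to 46.0% in wild boar, against 63.2% to 68.2% in domestic pig.

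The share of ADGRB3 among the 3 genes does not depend on the scaling of a library, as a common factor cancels. It was 44.9%, 46.0% and 45.2% in wild boar 1 to 3, against 68.2%, 63.2% and 63.3% in domestic pig 1 to 3. The groups were separate, with an exact two-sided permutation p of 0.1, the smallest that 3 libraries against 3 allow, and 0.15 after Benjamini-Hochberg adjustment over 6 such measures of the loci (n = 3 each). This measure was added after the values of the genes had been seen. In wild boar ADGRB3 and ADGRB2 stood close together, at 16.8 ± 6.25 and 12.9 ± 5.14 TPM, with ADGRB1 at 7.38 ± 2.67. In domestic pig ADGRB3, at 28.8 ± 8.11 TPM, stood above ADGRB2 at 10.3 ± 4.38 and ADGRB1 at 5.71 ± 1.72 (± SD, n = 3 libraries each). The order ADGRB3, ADGRB2, ADGRB1 held within each of the 6 libraries.

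The length of a gene in the genome moved with these differences. Over all tested genes with bounds, the median rescaled log2 difference was 0.15 for the 3461 genes that span under 20 kb, -0.0041 for 2542 genes of 20 to 50 kb, the range that holds ADGRB2, and -0.11 for 1699 genes of 50 to 100 kb, which holds ADGRB1. It was -0.15 for the 212 genes over 500 kb, the range that holds ADGRB3. Of the genes over 500 kb, 1.89% passed as higher and 17.5% as lower, against 14.5% and 3.64% of those under 20 kb. In the range of ADGRB2 7.79% passed as higher and 10.9% as lower, and in that of ADGRB1 6.59% and 15.9%. The share passing as lower was thus similar in the ranges of ADGRB1 and ADGRB3. The estimates of ADGRB1 and ADGRB2 were above the median of genes of like span and that of ADGRB3 was below it. The spans were looked at after the differences had been seen, and the part of gene span in these results was not tested.

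Genes whose rescaled levels followed those of the members most closely were named by the root mean square difference of log2 values centred over the 6 libraries. Among those nearest to ADGRB1 were SDF4, GAS6 and ERRFI1, at 0.048, 0.051 and 0.056 log2 units. GAS6 encodes a secreted ligand of receptor tyrosine kinases. Nearest to ADGRB2 were HGS, INTS1, PIP5K1C and SORCS2, at 0.067 to 0.070 log2 units. Nearest to ADGRB3 were LMLN, SCAF8, ZC3H7A and TMEM38B, at 0.031 to 0.038 log2 units, with ADGRB3 itself varying by an SD of 0.18. These are descriptions over 6 libraries that include the difference between the groups.

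The second comparison asked which circRNAs the ADGRB3 locus makes. ADGRB3 hosted 24 circRNAs, against a median of 2 over 3464 host genes, and 11 hosts had more. By summed circRNA TPM it ranked 15th among hosts. A total of 1096 back-splice reads from the locus were recovered over the 6 libraries, and 63.0% of them fell on 2 of the 24 circRNAs. ADGRB1 and ADGRB2 hosted 0. Of 3476 genes of mean TPM 5 to 25 that span under 100 kb 26.0% hosted a circRNA, and of 124 such genes over 500 kb, the range of ADGRB3, 79.8% did.

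The 24 circRNAs all read from the plus strand and used 11 acceptor and 10 donor positions. The first 304 kb of the gene's bounds held none. From there to the donor at 49476453 lay 22 circRNAs, many of them overlapping, and the remaining 2 lay nearer the 3′ end. Of the 24, 22 shared an acceptor or a donor with another ADGRB3 circRNA and 17 shared both ends with others. The acceptor at 49189827 was joined to 6 donors, and the donors at 49273638 and 49331483 were each joined to 5 acceptors. Over all circRNAs 69.5% shared an end with another. The median distance between acceptor and donor was 45.4 kb, against 14.2 kb over all circRNAs, and the median length after splicing, as used in the authors' scaling, was 705.5 nt against 539 nt. In 0 of the 24 did length equal span. ssc_circ_845 and ssc_circ_846 share an acceptor, differ in donor and both came out at 768 nt, so a length may not give the exons of a loop exactly; reads do not depend on it.

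**Figure D2:**
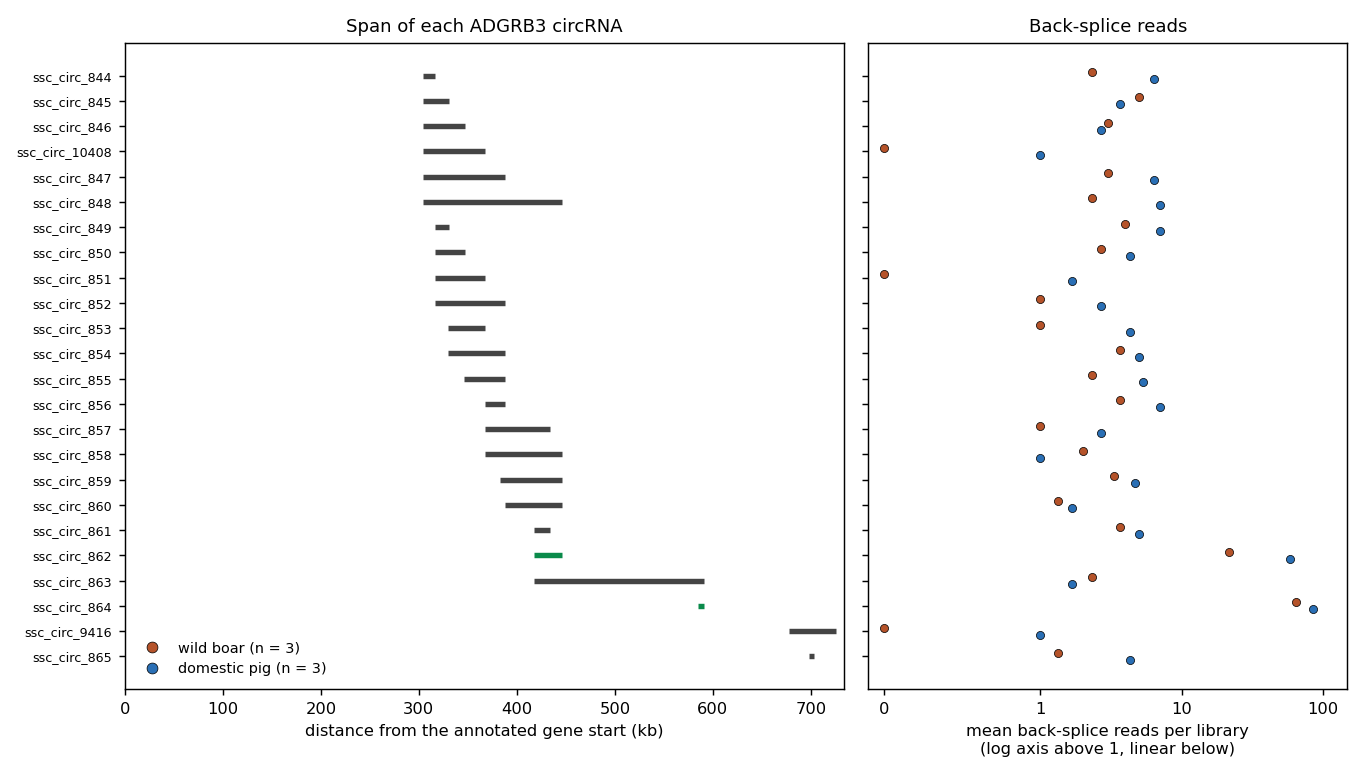
Left, span of each of the 24 ADGRB3 circRNAs in kb from the annotated start of the gene, with the 2 circRNAs of over 100 reads in green; right, mean back-splice reads per library for each circRNA in wild boar and domestic pig (n = 3 libraries each). ssc_circ_864 and ssc_circ_862 stand apart from the other 22, none of which had more than 33 reads over all libraries.

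The most abundant was ssc_circ_864, whose ends lie on chromosome 1 at 49470632 and 49476453, a span of 5.82 kb with a spliced length of 334 nt. It ranked 35th of all circRNAs by mean TPM. The second was ssc_circ_862, from 49303510 to 49331483, a span of 28.0 kb with a length of 373 nt, and it ranked 114th. A rarer loop, ssc_circ_863, joined the acceptor of the second to the donor of the first over 172.9 kb. Its length of 707 nt equals the sum of the other lengths, 334 and 373 nt. It had 0, 6 and 1 reads in wild boar, against 3, 0 and 2 in domestic pig, so both groups held it at few reads and the groups overlapped.

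Detection was broad across libraries. Of the 24, 10 were above 0 in all 6 libraries, 7 in 5, 3 in 4, 1 in 3, 1 in 2 and 2 in 1. Both groups held 21, and 3 were found in domestic pig only, with 5, 3 and 3 reads in all. These are ssc_circ_851, ssc_circ_10408 and ssc_circ_9416, and at such counts 0 reads in wild boar does not show absence, since a count of 0 allows up to 3 reads per library. Wild boar libraries held 16, 18 and 19 of the 24 and domestic pig libraries 22, 19 and 20. Wild boar 3 and domestic pig 2 thus held the same number, and the difference of -2.67 circRNAs had an exact permutation p of 0.2 (n = 3 each; adjusted 0.24). Of all 11375 circRNAs, wild boar libraries held 7432, 8713 and 7121 and domestic pig libraries 9329, 8240 and 9370. Counting only ADGRB3 circRNAs with at least 3 reads in a library gave 10, 12 and 12 in wild boar, against 21, 13 and 16 in domestic pig. These do not overlap, at a difference of -5.33 (exact permutation p = 0.1). That count was not corrected for depth, and its counterpart over all circRNAs was not computed. At the depth of the smallest library the expected numbers above 0 were 15.7, 15.5 and 19.0 in wild boar, against 20.7, 17.2 and 17.7 in domestic pig, which overlap.

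The third comparison asked whether the circRNA output of ADGRB3 differs between the groups and whether it follows the gene. Summed over the 24, circRNA TPM was lower in every wild boar library on both scalings. The gene's level was lower in every wild boar library after rescaling only. The ratio of circRNA to gene level gave a wide interval around 0 on both scalings. The deposited sum was 7.06, 6.91 and 7.97 TPM in wild boar 1 to 3, against 11.8, 14.1 and 13.2 TPM in domestic pig 1 to 3. The wild boar libraries lay close together and well below the lowest domestic pig library. On deposited TPM the sum was lower in wild boar by a log2 difference of -0.83 (SE 0.20; 95% interval -1.25 to -0.40; limma adjusted p = 0.0270 over 3177 hosts). Of all hosts 4.72% passed, 4.6% as lower and 0.126% as higher, around a median log2 difference of -0.52. Leaving out wild boar 1, wild boar 2, domestic pig 1, 2 or 3 ended the call, at limma adjusted p of 0.0730, 0.0605, 0.0731, 0.0863 and 0.0592, and so did a fit with no variance trend (adjusted p = 0.254).

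After the circRNA tables were rescaled, the sum was 8.45, 9.07 and 8.66 in wild boar, against 10.04, 11.7 and 9.13 in domestic pig. The groups still did not overlap, but domestic pig 3 was close to wild boar 2. The log2 difference of -0.23 (SE 0.19; 95% interval -0.62 to 0.17) did not pass (limma adjusted p = 0.691), and 0.0315% of hosts passed in either direction.

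As a share of all back-splice reads, ADGRB3 took 117 of 38047 reads in wild boar 1, 179 of 59343 in wild boar 2 and 109 of 33644 in wild boar 3. That is 0.308%, 0.302% and 0.324%, with 95% Wilson intervals of 0.257% to 0.368%, 0.261% to 0.349% and 0.269% to 0.391%. Domestic pig 1 to 3 gave 255 of 71183, 194 of 48822 and 242 of 73089 reads, or 0.358%, 0.397% and 0.331%. Their intervals were 0.317% to 0.405%, 0.345% to 0.457% and 0.292% to 0.375%. Every wild boar share was below every domestic pig share, but the interval of every wild boar library overlaps that of every domestic pig library. The overlap was narrow for wild boar 2 and domestic pig 2 and wide for wild boar 3 and domestic pig 3. The group values were 0.311% ± 0.0116 in wild boar, against 0.362% ± 0.0333 in domestic pig (± SD over 3 libraries each; p = 0.1 by exact two-sided permutation, the smallest possible; adjusted 0.15). Without domestic pig 2 the difference of -0.0512 percentage points became -0.0336, and over all libraries left out in turn it was -0.0668 to -0.0336. Intervals cover counting error only.

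Set against the gene, the summed circRNA TPM came to 41.3%, 66.6% and 34.8% of the ADGRB3 gene TPM in wild boar 1 to 3, against 56.8%, 38.2% and 45.8% in domestic pig 1 to 3. The groups interleave, with the highest and the lowest value both in wild boar. The group values were 47.6% ± 16.8 in wild boar, against 46.9% ± 9.35 in domestic pig (± SD over 3 libraries each; p = 1 by exact two-sided permutation; adjusted 1). The limma log2 difference of the ratio was -0.054 on deposited TPM (95% interval -0.82 to 0.71; adjusted p = 0.994) and 0.057 on rescaled TPM (95% interval -0.37 to 0.48; adjusted p = 0.939). Of all 2778 hosts with both values 0.036% passed on either scaling. The sign of this small estimate changed under several alternatives, so no direction is given. A percent of this kind is not a count of molecules, since circRNA TPM rests on junction reads alone and gene TPM can include reads from the loops.

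On deposited TPM the plot of gene and circRNA level shows the libraries of each breed in the same order on both axes. In wild boar, library 2 was lowest and library 3 highest in both gene and circRNA TPM. In domestic pig, library 1 was lowest and library 2 highest in both. Wild boar 3 had more gene TPM than domestic pig 1, at 22.9 against 20.7, and less circRNA TPM, at 7.97 against 11.8. On rescaled TPM the shared order did not hold in wild boar. Library 2 was then lowest in gene level, at 18.0, and highest in circRNA level, at 9.07. In domestic pig it held, with library 3 then lowest and library 2 highest in both. With 3 libraries per group no correlation was computed within a breed.

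**Figure D3:**
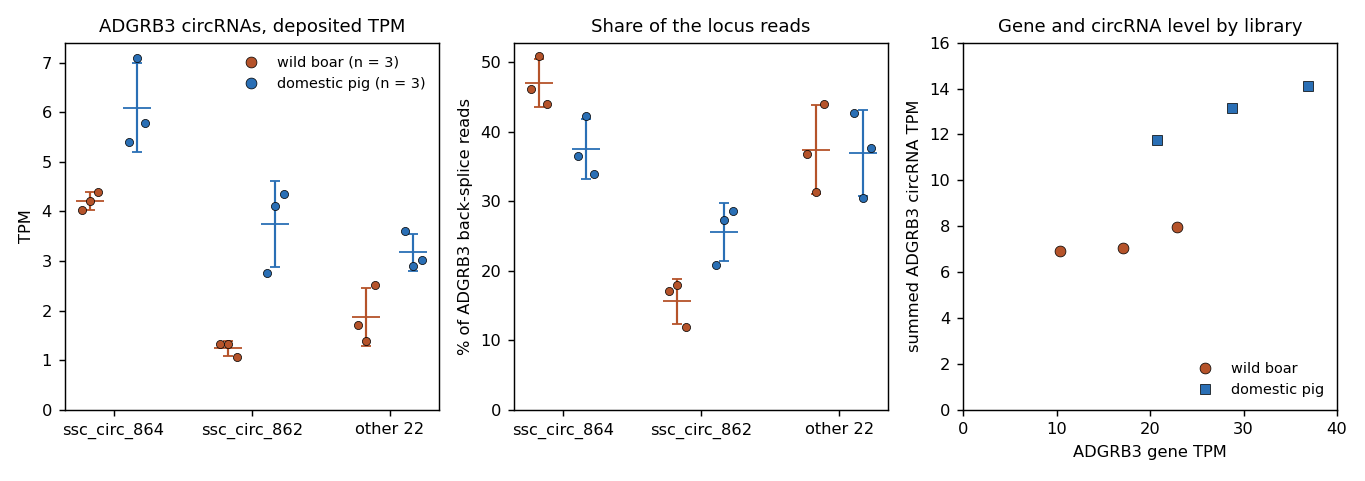
Left, deposited TPM of ssc_circ_864, ssc_circ_862 and the sum of the other 22 ADGRB3 circRNAs; middle, the percent of ADGRB3 back-splice reads held by each; right, summed ADGRB3 circRNA TPM against ADGRB3 gene TPM, 1 point per library. Points are libraries, marks and bars are means and SD over 3 libraries; ssc_circ_862 is at 1.06 to 1.33 TPM in wild boar, against 2.75 to 4.36 TPM in domestic pig, while its share of the locus is 11.9% to 17.9% in wild boar, against 20.8% to 28.5% in domestic pig.

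Single circRNAs of the locus were tested among 9709 circRNAs above 0 in at least 3 libraries. Of the 24, 21 met that filter and 0 passed on either scaling by limma, where 0.134% of all circRNAs passed on deposited and 0.0206% on rescaled TPM (0.0103% in each direction). At an unadjusted p under 0.05 there were 3 on deposited and 1 on rescaled TPM, beside 1408 and 881 of all 9709. The median log2 difference of the 21 was -0.53 on deposited TPM, against -0.45 over all circRNAs tested, and -0.14 against -0.10 after rescaling. On deposited TPM 17 of the 21 were below 0, as were 74.3% of all circRNAs tested, and after rescaling 12 of the 21 were, against 56.3% of all. On deposited TPM 6 had every wild boar value below every domestic pig value, against 18.2% of all circRNAs tested. The reverse order was seen in 0 of the 21 and in 2.46% of all. Of these 6, ssc_circ_847, ssc_circ_853 and ssc_circ_862 also had no overlap after rescaling, while ssc_circ_849, ssc_circ_856 and ssc_circ_864 did overlap. The share of all circRNAs without overlap after rescaling was not computed, so these cases are a description only. Apart from the leading pair, each of the 24 had at most 33 reads over 6 libraries, so single differences among them are imprecise.

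The second most abundant, ssc_circ_862, had 20, 32 and 13 reads in wild boar 1 to 3, against 53, 53 and 69 in domestic pig 1 to 3. In TPM it was at 1.33, 1.32 and 1.06 in wild boar, against 2.75, 4.11 and 4.36 in domestic pig. The lowest domestic pig value was more than the highest wild boar value by a wide margin. Its log2 difference was -1.54 on deposited TPM (SE 0.30; 95% interval -2.18 to -0.90), and it missed the threshold by little (limma adjusted p = 0.0536). With a pseudocount of 0.2 in place of 0.045 it passed (adjusted p = 0.0338), and under the other alternatives on deposited TPM it did not, at 0.0526 with the replicate block, 0.0623 with no filter, 0.216 with no variance trend and 0.0762 to 0.125 with 1 library left out. After rescaling the log2 difference was -0.95 (SE 0.30; limma adjusted p = 0.319).

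The most abundant, ssc_circ_864, had 54, 91 and 48 reads in wild boar, against 93, 82 and 82 in domestic pig. It was at 4.02, 4.20 and 4.38 TPM in wild boar, against 5.40, 7.10 and 5.79 TPM in domestic pig, with no overlap on this scale. Its log2 difference was -0.52 on deposited TPM (SE 0.24; limma adjusted p = 0.326) and 0.073 after rescaling (SE 0.25; adjusted p = 0.959), so its sign depends on the scaling.

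The shares of the leading pair within the locus did not overlap between the groups. ssc_circ_864 held 46.2%, 50.8% and 44.0% of ADGRB3 back-splice reads in wild boar 1 to 3, against 36.5%, 42.3% and 33.9% in domestic pig 1 to 3. ssc_circ_862 held 17.1%, 17.9% and 11.9% in wild boar, against 20.8%, 27.3% and 28.5% in domestic pig. The first share was higher in every wild boar library, at 47.0% ± 3.48 in wild boar, against 37.5% ± 4.29 in domestic pig, and the second lower, at 15.6% ± 3.23 in wild boar, against 25.5% ± 4.16 in domestic pig (± SD, n = 3 libraries each). Each had an exact two-sided permutation p of 0.1, the smallest possible, and 0.15 after adjustment over the 6 measures. Reads of the first per read of the second were 2.70, 2.84 and 3.69 in wild boar, against 1.75, 1.55 and 1.19 in domestic pig. The share of the second circRNA was added after its values had been seen. Shares within a locus do not depend on library scaling.

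The circRNAs next in level or in p had few reads, and on deposited TPM their wild boar means were below the domestic pig means. ssc_circ_856, from 49253412 to 49273638, was at 0.231 ± 0.0852 TPM in wild boar, against 0.446 ± 0.0858 in domestic pig with no overlap (limma adjusted p = 0.431). After rescaling its groups overlapped, and the log2 difference was -0.34, against -0.86 on deposited TPM. ssc_circ_844, from 49189827 to 49202092, was at 0.128 ± 0.141 TPM in wild boar, against 0.329 ± 0.0673 in domestic pig, with 0 reads in wild boar 1 and overlapping groups (limma adjusted p = 0.322). ssc_circ_849, which starts at 49201928 and ends at 49216259, was at 0.181 ± 0.0229 TPM in wild boar, against 0.314 ± 0.135 in domestic pig, with no overlap (limma adjusted p = 0.598). After rescaling it was at 0.241, 0.205 and 0.201 in wild boar, against 0.401, 0.193 and 0.165 in domestic pig, so that domestic pig 1 alone was above the wild boar libraries, and the log2 difference was -0.12, against -0.61 on deposited TPM. ssc_circ_853, from 49215242 to 49253606, was at 0.0279 ± 0.0241 TPM in wild boar, against 0.135 ± 0.0570 in domestic pig, also with no overlap (± SD over 3 libraries; limma adjusted p = 0.373). The rescaled log2 differences of ssc_circ_844 and ssc_circ_853 were -1.08 and -0.98 (limma adjusted p = 0.702 and 0.713). ssc_circ_855, ssc_circ_859 and ssc_circ_861 completed the 8 of highest mean, with overlapping groups and adjusted p of 0.526, 0.806 and 0.784 on deposited TPM. Their rescaled log2 differences were -0.62, -0.14 and 0.13. Apart from the leading pair, the 22 together were at 1.71, 1.39 and 2.52 TPM in wild boar, against 3.61, 2.91 and 3.02 TPM in domestic pig.

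**Figure D4:**
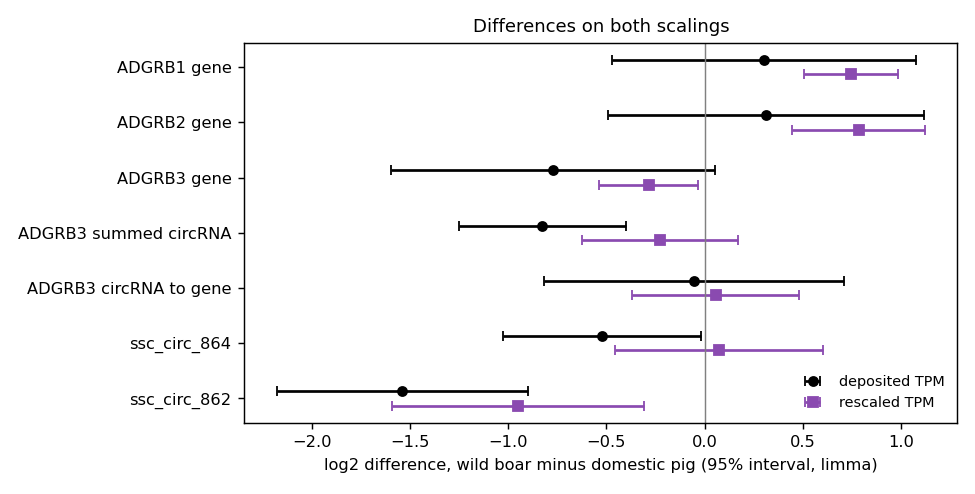
Log2 difference, wild boar minus domestic pig, of the 3 genes, the summed ADGRB3 circRNA TPM, its ratio to the gene and the 2 leading circRNAs, on deposited (circles) and rescaled (squares) TPM; bars are 95% intervals from limma, not adjusted for multiple tests. The ADGRB1 and ADGRB2 intervals lie above 0 after rescaling only, and the ratio of circRNA to gene includes 0 on both scalings.

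The proteins that bind these receptors outside the cell were looked at next. Of 11 listed ligands and extracellular partners 9 were tested, and 0 passed on deposited TPM by limma, with 1 at an unadjusted p under 0.05, as had 2091 of all 11752 genes. After rescaling 4 passed as higher and 1 as lower, where 19.5% of all genes passed, and their median log2 difference was 0.35 against 0.01 over all genes. RTN4R and RTN4RL2, Nogo receptor family members that bind the group, were higher by log2 0.85 and 0.74 (limma adjusted p = 0.00537 and 0.00802). RTN4R was at 7.03 TPM on average in wild boar, against 4.88 in domestic pig on the deposited scale. RTN4RL1, of the same family, did not pass, at a rescaled log2 difference of 0.14 (limma adjusted p = 0.379). C1QL2 and C1QL3, C1q-like ligands of ADGRB3, were higher after rescaling by 0.54 and 0.57 (adjusted p = 0.0373 and 0.0496). C1QL1 did not pass, at 0.17 (adjusted p = 0.572). C1QL4, at 0.0796 TPM on average in wild boar, against 0.0906 in domestic pig, fell under the filter. The C1QL3 call was lost with any 1 library left out, at adjusted p of up to 0.126. The C1QL2 call was lost without wild boar 2, domestic pig 1 or domestic pig 2, at up to 0.0942, and without any of the other 3 libraries the gene no longer met the filter. NLGN1, a postsynaptic adhesion protein, was lower after rescaling, at a log2 difference of -0.60 (adjusted p = 0.0149), and the call was lost without wild boar 2 or domestic pig 1, at up to 0.0542.

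Inside the cell the receptors are known to bind scaffold proteins and to feed the ELMO and DOCK1 exchange factor for the GTPase RAC1. Of 15 listed partners 14 were tested, and 0 passed on deposited TPM by limma, with 5 at an unadjusted p under 0.05, beside 2091 of 11752 genes. After rescaling 2 passed as higher and 3 as lower, where 8.88% and 10.7% of all genes did, with a median log2 difference of -0.18 against 0.01 over all genes. BAIAP2, an actin regulator first found as a binding partner of ADGRB1, and DLG4, the postsynaptic scaffold PSD-95, were higher by 0.70 and 0.57 (limma adjusted p = 0.0144 and 0.0306). MDM2, a ubiquitin ligase, and GABPA and GABPB1, the subunits of a transcription factor, were lower, at log2 differences of -0.48, -0.36 and -0.41 (adjusted p = 0.0199, 0.0458 and 0.0261). The BAIAP2 call was lost without wild boar 2 (adjusted p = 0.0542) and the MDM2 call when wild boar 1 or 3 or domestic pig 1 was left out (up to 0.0700). The calls of DLG4 and GABPB1 were lost without any 1 library other than domestic pig 2 (up to 0.0982 and 0.0816), and that of GABPA without any 1 library (up to 0.133). ELMO2, DOCK1 and RAC1 did not pass, at rescaled log2 differences of -0.11, 0.09 and 0.27.

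The wider adhesion receptor family was counted in the same way. Of 29 listed members 16 were tested. On deposited TPM 0 passed by limma, with 3 at an unadjusted p under 0.05, beside 2091 of 11752 genes. After rescaling 1 passed as higher and 1 as lower, where 8.88% and 10.7% of all genes did. ADGRL1, a latrophilin, was higher by 0.73 (limma adjusted p = 0.0346) and ADGRV1, a very large receptor of sensory hair cells, lower, at -0.64 (adjusted p = 0.0411). The ADGRL1 call was lost without any 1 library other than domestic pig 2, and the ADGRV1 call without any other than domestic pig 3, at adjusted p of up to 0.0934 and 0.125. ADGRL3, another latrophilin, was at 17.2 TPM in wild boar, against 29.5 in domestic pig, close to ADGRB3, with a rescaled log2 difference of -0.26 (adjusted p = 0.203). Of 7 latrophilin ligands 5 were tested, and 0 passed on deposited TPM by limma. At an unadjusted p under 0.05 there were 2, beside 2091 of 11752 genes. FLRT3, a membrane protein that binds latrophilins, was lower after rescaling, at -0.51 (limma adjusted p = 0.0259), and the call held only without wild boar 3 or without domestic pig 2, with adjusted p of up to 0.0797 when another library was left out. For ADGRE1, ADGRE2, ADGRF2, ADGRG4, CD36, ELMO1 and TENM4 no gene row was matched by symbol, so their gene levels are not given. The other listed genes that were not tested fell under the filter.

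ADGRB3 had a higher circRNA level than any other gene on these lists, at 7.32 ± 0.571 TPM in wild boar, against 13.01 ± 1.19 in domestic pig (± SD, n = 3 libraries each). Of the other adhesion receptors, ADGRA3 hosted 7 circRNAs with a summed mean of 0.778 TPM in wild boar, against 1.17 in domestic pig, ADGRV1 hosted 4 at 0.616 TPM in wild boar, against 0.557 in domestic pig, and ADGRL3 hosted 7 at 0.482 TPM in wild boar, against 0.435 in domestic pig. ADGRL3, with a gene level like that of ADGRB3, thus had a circRNA sum below 1 TPM. Among the partners MAGI2, PARD3 and DOCK1 hosted 10, 11 and 5, at 1.58, 1.45 and 0.864 TPM in wild boar, against 1.96, 1.85 and 0.834 in domestic pig. ITGAV hosted 3 at 0.109 TPM in wild boar, against 0.120 in domestic pig. TENM2, TENM3 and TENM4, teneurins that bind latrophilins, were at 0.473, 0.2005 and 0.0967 TPM in wild boar, against 0.583, 0.719 and 0.203 in domestic pig. Of the 18 tested hosts on these lists, 0 passed by limma on either scaling, where 4.72% and 0.0315% of all hosts passed on deposited and rescaled TPM. An unadjusted p under 0.05 was seen for 3 and 1 of the 18, and for 712 and 355 of all 3177 hosts, on the same scales. TENM3 had the lowest adjusted p, 0.0619 on deposited TPM, at a log2 difference of -1.83, and after rescaling it was at -1.30 (limma adjusted p = 0.409).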

How the data were processed

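The authors deposited length-scaled TPM for protein-coding genes and for circRNAs, 1 column per library, with 0 unused columns. Per the labels' protocols, RNA was extracted with Trizol, depleted of ribosomal RNA and made into stranded libraries. STAR 2.6.0c and BWA 0.7.17 are listed in the submitters' processing notes. For the genome build, the annotation and the circRNA caller the entry is: not given in the sources used here. Host genes were assigned by position in the RefSeq Sscrofa11.1 annotation, in which 99.3% of circRNAs lay inside a gene. Starts were raised by 1 to count from 1.

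Each circRNA value was a whole number of reads divided by a length and multiplied by 1 factor per library, for all 11375 circRNAs within a relative tolerance of 1e-05. Lengths were scaled on 143 short circRNAs whose length equals their span, and came out whole within 0.01 nt. Where several whole solutions fit, the lowest was taken that gives a whole length and 3 reads or more in some library, which raised 822 circRNAs, ssc_circ_9416 and ssc_circ_10408 among them; a higher multiple cannot be told apart.

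Genes with TPM of at least 1 in 3 libraries were tested on log2(TPM + 1), and circRNAs and hosts above 0 in 3 libraries on log2(TPM + 0.045), by limma 3.58.1 in R 4.3.3 with a variance trend. Tests were two-sided, p-values were adjusted by the Benjamini-Hochberg method, and the threshold was 0.05. Differences on these scales understate changes of low values. Single values per library were compared by exact permutation, which cannot go below p = 0.1. Alternatives were another pseudocount, no filter, quantile scaling, no trend, a replicate block and leaving out each library. The members and lists were chosen with earlier results of these data known. Named circRNAs are the 8 of highest mean and the 5 of lowest p, and named list genes those past the threshold. Named hosts are the 3 of highest circRNA level in a list. As genes ELMO2, DOCK1, RAC1, ADGRL3, RTN4RL1, C1QL1 and C1QL4 were chosen after their values were seen. So were ssc_circ_845, ssc_circ_846, ssc_circ_847, ssc_circ_863 and the circRNAs of 1 group. One gene that the likeness rule names is not reported here. The tests were checked on simulated data. Libraries of a group differed by more than sampling noise, with chi-square per degree of freedom of 1.63 to 2.25.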

Additional observations from a re-analysis of the deposited data

How the results depend on the processing

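ADGRB1 and ADGRB2 passed on rescaled TPM under every alternative run there except deposited TPM, where their log2 differences were 0.30 and 0.31 in place of 0.74 and 0.78. On deposited TPM, leaving out 1 library gave 0.069 to 0.58 for ADGRB1 and 6.8e-04 to 0.62 for ADGRB2, both lowest without domestic pig 1, and -1.02 to -0.48 for ADGRB3. The summed ADGRB3 circRNA level was -0.83 on deposited TPM, also with no variance trend, where the call was lost, -0.90 to -0.77 with 1 library left out, and -0.23 on rescaled TPM. Its ratio to the gene was -0.054 on deposited TPM (-0.30 to 0.13 with 1 library left out) and 0.057 on rescaled TPM (-0.018 to 0.096). The causes were not tested.

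Genes called on deposited TPM numbered 188, against 6 with no filter, 285 with no trend, 26 to 426 with 1 library left out and 2295 on rescaled TPM, where leaving out 1 gave 779 to 2165. CircRNAs called numbered 13 on deposited TPM, against 29 at the larger pseudocount, 6 with no filter, 1 with no trend, 1 to 25 with 1 left out and 2 on rescaled TPM; there they numbered 1 with no filter, 0 with no trend and 0 to 2 with 1 left out. Hosts called by summed level numbered 150 on deposited TPM, 1 with no trend, 33 to 142 with 1 left out and 1 on rescaled TPM, there 0 with no trend, 2 with quantile scaling and 1 to 3 with 1 left out. Hosts called by ratio numbered 1 on each scaling, 3 and 16 at the other pseudocounts, 0 and 0 with no trend, and 0 to 0 and 0 to 1 with 1 left out, on deposited and rescaled TPM.

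Same-numbered libraries did not deviate together (correlations 0.12, -0.044 and -0.041), so the numbers do not pair them. With the replicate block 70 and 1250 genes, 21 and 0 circRNAs, 191 and 26 hosts by summed level and 2 and 0 by ratio were called on deposited and rescaled TPM. The block left the calls of ADGRB1, ADGRB2 and ADGRB3, its summed circRNA level and its ratio where they were. It ended the rescaled calls of ADGRL1, ADGRV1, C1QL3, DLG4, GABPA, GABPB1 and FLRT3, at limma adjusted p of 0.0594, 0.0828, 0.0871, 0.0511, 0.0898, 0.0592 and 0.0584. With the block the share of back-splice reads differed by -0.0512 percentage points, with wild boar lower at each number. The within-number permutation p was 0.25, the smallest that 3 libraries per group allow under the block, so no conclusion is drawn from it.

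Among single circRNAs the sign changed with the scaling for ssc_circ_864 (-0.52 deposited, 0.073 rescaled) and ssc_circ_861 (-0.36 and 0.13). With 1 library left out, rescaled values ran from -0.069 to 0.20 for ssc_circ_864, -0.42 to 0.44 for ssc_circ_861, -0.34 to 0.21 for ssc_circ_849, -1.10 to 0.16 for ssc_circ_855 and -0.85 to 0.80 for ssc_circ_859, which was at 3.9e-04 at the larger pseudocount and at -1.09 to 0.41 on deposited TPM. Deposited values ran from -0.10 to 0.63 for ADGRL1, -0.34 to 0.46 for C1QL3, -0.10 to 0.45 for BAIAP2 and -0.23 to 0.36 for DLG4. Of 500 alternative values of named circRNAs and list genes, 391 kept direction and side of the threshold. With 22 of the 24 circRNAs at 33 reads or fewer, depth limits every statement on single minor loops.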
